A study of Mus musculus with 40 samples.

Results

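The genes described here are 46 genes of the dividing cell, 22 that copy DNA and 24 that carry out mitosis, in RNA-seq of the mouse hippocampus. They were taken by symbol from the 40853 rows of a gene count table, and all 46 had enough reads (a count sum of at least 20 over 40 mice) to be among the 28449 genes tested. The mice, 18 females and 22 males, received viral injections into the hippocampus that deleted or replaced the histone variant H2A.Z. All mice were described as carrying floxed alleles of H2afz (H2A.Z.1, listed as H2az1) and H2afv (H2A.Z.2, listed as H2az2), while the labels give the genotype of the Myc mice as WT. H2A.Z KO mice (labelled H2A.Z.1/H2A.Z.2 KD; 4 females, 4 males) were injected with a virus in which the Synapsin promoter, active in neurons, drives Cre, mixed with a 3x-Myc vector. Replacement mice received the same Cre with a CMV-driven Myc-tagged H2A.Z.1 that was intact (H2A.Z.1 WT; 4 females, 5 males) or had lysines 4, 7 and 11 changed to alanine (KA; 4 females, 4 males) or to glutamine (KQ; 3 females, 5 males). Myc control mice (3 females, 4 males) received the 3x-Myc vector without Cre. Age was not given in the labels. Each library is 1 mouse and is named by its group and sample number.

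A cell that divides first loads the MCM helicase onto origins, then copies its DNA with polymerases held by the PCNA clamp and fed by nucleotide synthesis, and later condenses and separates the copies under the control of cyclin B with CDK1, the Aurora and Polo kinases and the spindle checkpoint. In the adult hippocampus most neurons do not divide, and the cells that can are stem and progenitor cells of the dentate gyrus, glial precursors, microglia and any blood cells that enter. Replication genes are classic targets of E2F factors, whereas many mitotic genes are controlled through CCAAT boxes and a cell cycle genes homology region (CHR) close to the start of transcription.

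Because the comparison of replication with mitotic genes runs along this division of promoters, the promoters of the members were searched for these elements. RefSeq windows (build GRCm38.p6) of 250 bases before to 50 bases after the start of transcription were found for 38 of 46 members, 18 replication and 20 mitotic genes, and 3 members had more than 1 window. An E2F word was any of TTTGGCGC, TTTCCCGC, TTTGCCGC and TTTCGCGC, the CHR word was TTTGAA and the CCAAT box was CCAAT, each on either strand. The 6 windows below belong to members with small p-values in KO mice against Myc mice. They are printed 5′ to 3′ on the strand of the gene with every such word in capitals, also in its reverse form, and show how E2F words sit in Mcm3 and Cdt1 while CHR words sit in the 3 mitotic promoters and CCAAT boxes in promoters of both kinds.
Mcm3: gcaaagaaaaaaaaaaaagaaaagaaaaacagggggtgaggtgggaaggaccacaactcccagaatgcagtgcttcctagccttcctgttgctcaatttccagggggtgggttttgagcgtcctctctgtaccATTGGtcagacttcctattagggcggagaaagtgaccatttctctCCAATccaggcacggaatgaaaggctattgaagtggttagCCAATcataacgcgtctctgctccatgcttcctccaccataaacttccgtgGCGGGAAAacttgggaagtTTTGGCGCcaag
Cdt1: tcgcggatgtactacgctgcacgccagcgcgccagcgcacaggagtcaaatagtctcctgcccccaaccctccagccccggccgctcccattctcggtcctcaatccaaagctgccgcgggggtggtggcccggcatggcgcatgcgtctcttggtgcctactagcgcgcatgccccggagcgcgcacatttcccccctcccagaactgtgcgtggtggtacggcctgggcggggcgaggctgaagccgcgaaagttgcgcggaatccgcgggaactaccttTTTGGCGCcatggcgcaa
Rrm2: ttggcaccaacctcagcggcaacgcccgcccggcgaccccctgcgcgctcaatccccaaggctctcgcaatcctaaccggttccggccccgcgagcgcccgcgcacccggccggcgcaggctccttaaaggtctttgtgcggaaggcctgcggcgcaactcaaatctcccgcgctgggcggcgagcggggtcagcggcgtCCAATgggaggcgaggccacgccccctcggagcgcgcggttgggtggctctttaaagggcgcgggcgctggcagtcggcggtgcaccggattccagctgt
Cdk1: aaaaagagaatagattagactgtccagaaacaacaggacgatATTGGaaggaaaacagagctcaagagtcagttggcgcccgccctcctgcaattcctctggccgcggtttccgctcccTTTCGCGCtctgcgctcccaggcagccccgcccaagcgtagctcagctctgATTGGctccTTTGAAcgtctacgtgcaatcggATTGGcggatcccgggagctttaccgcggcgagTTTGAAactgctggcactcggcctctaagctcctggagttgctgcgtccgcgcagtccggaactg
Top2a: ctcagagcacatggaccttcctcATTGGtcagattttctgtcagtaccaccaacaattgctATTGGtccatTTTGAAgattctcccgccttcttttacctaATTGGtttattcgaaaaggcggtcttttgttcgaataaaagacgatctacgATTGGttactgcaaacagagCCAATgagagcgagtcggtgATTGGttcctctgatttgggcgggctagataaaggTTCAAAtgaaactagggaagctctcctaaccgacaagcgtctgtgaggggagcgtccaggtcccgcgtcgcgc
Cdc20: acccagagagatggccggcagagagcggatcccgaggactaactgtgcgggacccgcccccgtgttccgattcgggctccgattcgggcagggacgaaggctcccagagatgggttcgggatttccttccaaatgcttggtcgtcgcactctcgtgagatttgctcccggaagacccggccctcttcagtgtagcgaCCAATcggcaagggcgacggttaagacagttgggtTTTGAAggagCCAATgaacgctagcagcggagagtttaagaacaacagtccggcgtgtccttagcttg
The windows lie at chr1:20820263-20820562, minus strand (Mcm3), chr8:122567765-122568064, plus strand (Cdt1), chr12:24708004-24708303, plus strand (Rrm2), chr10:69352863-69353162, minus strand (Cdk1), chr11:99024140-99024439, minus strand (Top2a) and chr4:118437294-118437593, minus strand (Cdc20).

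An E2F word stood in 9 of 18 replication genes with a window and in 1 of 20 mitotic genes (Cdk1), against 2.61% of all 27025 genes with a window. The replication genes with the word were Mcm3, Mcm5, Mcm6, Mcm7, Cdt1, Cdc6, Pola1, Rfc3 and Lig1. A CHR word stood in 15 of 20 mitotic genes and in 2 of 18 replication genes (Mcm2 and Cdc45), against 20.2% of all genes. The mitotic genes without it were Nusap1, Bub1, Cenpe, Birc5 and Ccnb1. A CCAAT box stood in 17 of 20 mitotic and 13 of 18 replication genes, against 41.1% of all genes. Within 100 bases before to 50 after the start, the CHR word was still in 15 of 20 mitotic genes, whereas the share over all genes was 9.23%. In that window E2F words stood in 6 of 18 replication and 0 of 20 mitotic genes, against 1.45% of all genes, and CCAAT boxes in 11 of 18 and 15 of 20, against 26.3%. In Cdk1 the words were layered, with an E2F word from base -131, CHR words from bases -71 and -15 and CCAAT boxes from bases -208, -80 and -48 (base +1 is the start). Top2a held 6 CCAAT boxes and Cdc20 held 2, with a CHR word from base -18. These matches describe letters in a window and do not show that a factor was bound.

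**Figure D1:**
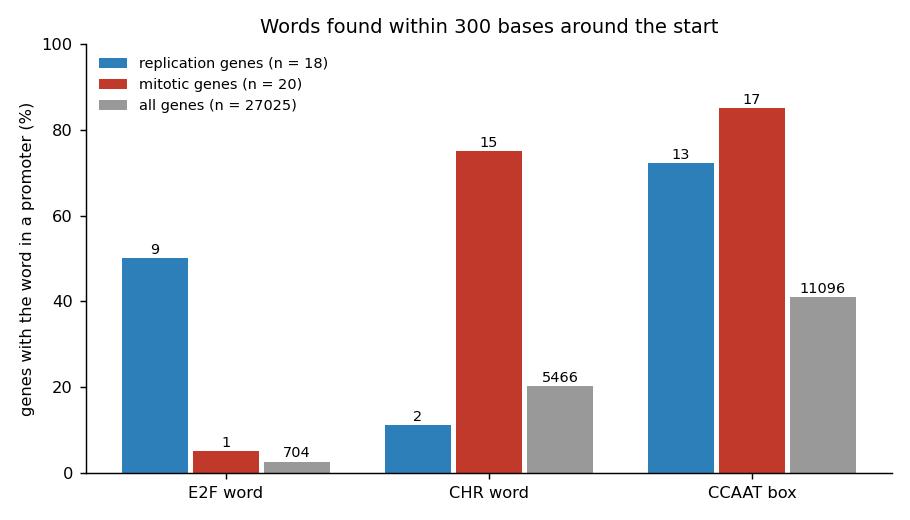
Share of genes (%) whose RefSeq window of 300 bases around the start held an E2F word, a CHR word or a CCAAT box, for replication genes, mitotic genes and all genes; the number above each bar counts the genes. E2F words stood in 9 of 18 replication genes and 1 of 20 mitotic genes, and CHR words in 2 of 18 and 15 of 20.

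The libraries held 24342921 to 45982772 counts, with a median of 36417112. Levels are given as CPM, counts scaled by library size after TMM normalisation, and a gene was called changed at a Benjamini-Hochberg adjusted p below 0.05 in edgeR's quasi-likelihood test over all 28449 genes. Over all genes tested, the median log2 fold change of KO over Myc was 0.003 in females and 0.03 in males. The most distant pair of Myc females stood further apart (chi-square per degree of freedom 258) than any pair within the other groups (up to 97.7). H2az1 had 28.1 to 36.3 CPM in KO females against 28.1 to 34.5 CPM in Myc females. In males it had 17.7 to 37.6 CPM in KO mice against 27 to 37.2 CPM in Myc mice. The targeted gene was thus not clearly lower in these whole-tissue libraries (log2 fold change -0.06 ± 0.17 in females and -0.05 ± 0.16 in males, SE). A small drop would lie within these errors. H2az2 was not lower either, at 0.28 ± 0.12 and 0.14 ± 0.11. The paper, by contrast, reported lower H2afz mRNA in KO mice and lower H2afv mRNA in all Cre groups. It ascribed the small size of the drop to the likely low sensitivity of bulk tissue for a deletion in neurons. In cultured neurons it reported a robust loss of H2A.Z. Markers of hippocampal neurons were abundant in every library, with summed levels of 4224 to 7576 CPM in KO females and 10832 to 11129 CPM in Myc females. In KO males they summed to 5067 to 8516 CPM, against 10817 to 11890 CPM in Myc males. In bulk tissue, fewer cells of a type and less RNA per cell cannot be told apart.

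The first comparison asked how the dividing-cell genes differed between KO and Myc mice. Only the KO mice of this comparison received the Cre virus, so deletion of H2A.Z and the Cre virus itself cannot be told apart. Both groups of genes were higher in KO mice of both sexes and no member was lower. In females, 13 of 22 replication genes and 17 of 24 mitotic genes were called higher, where 18.1% of all genes were. In males, 19 of 22 replication genes and 22 of 24 mitotic genes were called higher, where 17.2% of all genes were. On the log2 scale the mitotic genes moved further, at a median of 1.60 in females and 2.16 in males, against 0.62 and 0.72 for the replication genes. Control levels differed widely, with means in Myc females of 32.0 CPM for Pcna and 16.2 CPM for Rrm1 but 0.41 CPM for Cdk1 and 0.12 CPM for Ccnb1. Other genes went the other way, such as mitotic Anln (38.9 CPM) and the replication gene Cdc6 (0.71 CPM). The part of control level in the difference between the lists was not tested. Every member called in females was also called in males (13 replication and 17 mitotic genes). Another 6 replication genes (Gins2, Cdc6, Pola1, Prim1, Rfc3 and Tyms) and 5 mitotic genes (Aurka, Plk1, Cenpe, Ttk and Nusap1) were called in males only, and 5 members (Mcm6, Cdc45, Rfc4, Kif20a and Anln) in neither sex. In 31 of 46 members every KO female lay above every Myc female (18.8% of all genes), and in 31 of 46 every KO male lay above every Myc male (15% of all genes).

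**Figure D2:**
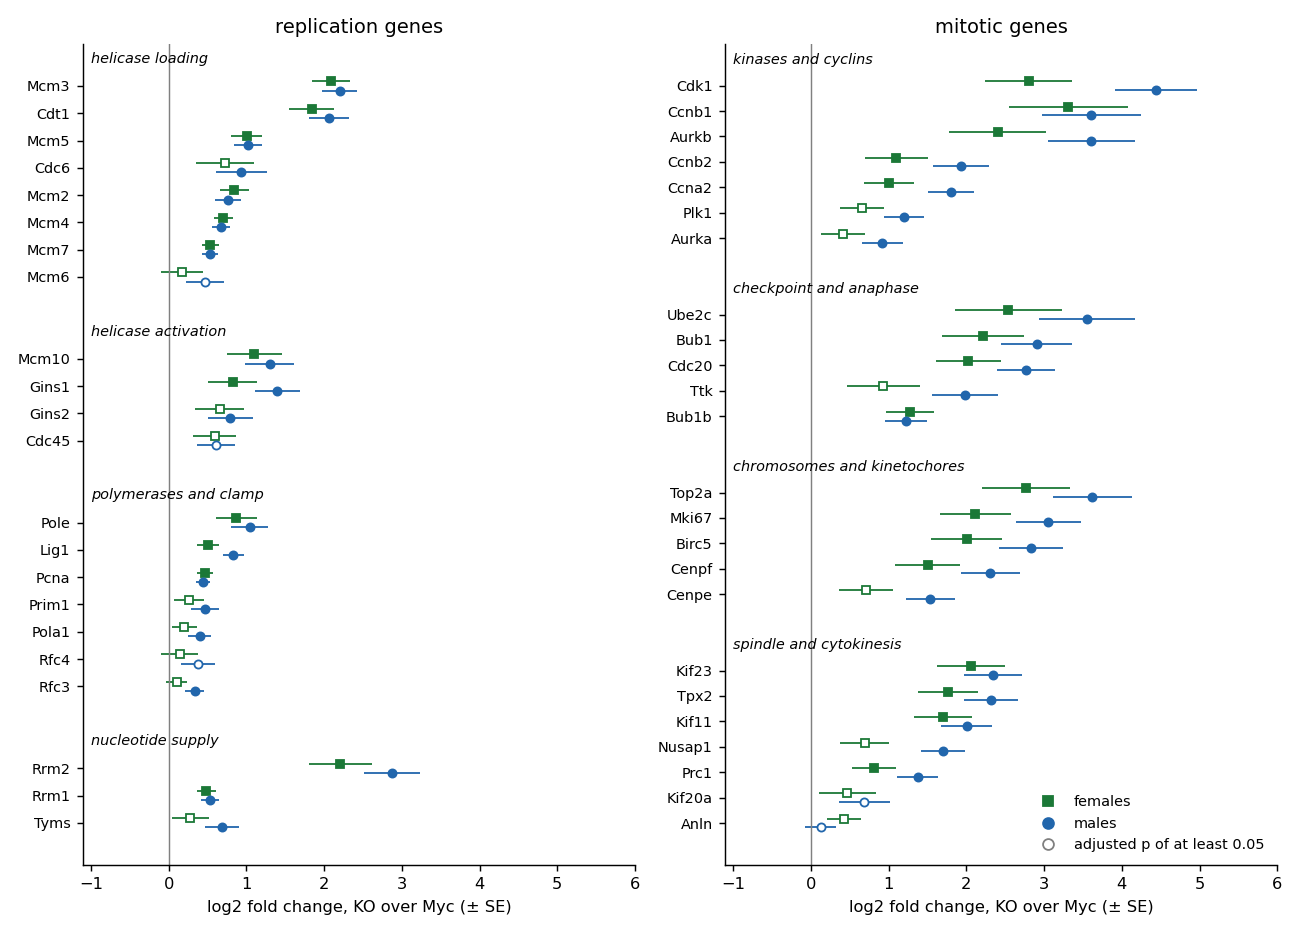
Log2 fold change of KO over Myc (± SE) for the 22 replication genes (left) and 24 mitotic genes (right), grouped by role, in females (squares) and males (circles); open symbols did not pass the test. All 46 values lie above 0 in both sexes, and the mitotic genes reach 4.44 (Cdk1, males) where the replication genes reach 2.87 (Rrm2, males).

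Among the genes that load the replicative helicase, Mcm3 and Cdt1 changed most and the other MCM subunits less. Mcm3, a subunit of the MCM2-7 ring, had 11.1, 9.24, 6.94 and 12.4 CPM in KO females, against 2.46, 1.78 and 2.72 CPM in Myc females. In KO males Mcm3 had 8.16, 15.8, 14.5 and 7.52 CPM, against 2.34, 2.54, 2.49 and 2.66 CPM in Myc males. The groups did not overlap in either sex, and the log2 fold change was 2.09 ± 0.25 in females (SE, adjusted p = 4.9e-08) and 2.20 ± 0.22 in males (adjusted p = 5.6e-10). Cdt1, which brings the ring to the origin, had 2.88, 3.10, 1.14 and 2.29 CPM in KO females, against 0.628, 0.712 and 0.639 CPM in Myc females. In KO males Cdt1 had 2.43, 3.49, 3.09 and 1.38 CPM, against 0.528, 0.635, 0.674 and 0.659 CPM in Myc males. Mice 33 and 42 were the lowest of the KO mice and still lay above every Myc mouse of their sex. The log2 fold change of Cdt1 was 1.84 ± 0.29 in females (adjusted p = 4.6e-06) and 2.06 ± 0.26 in males (adjusted p = 4.8e-08).

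The other ring subunits formed a graded series. Mcm5 had 8.24, 8.66, 6.20 and 11.3 CPM in KO females, against 4.57, 3.99 and 4.30 CPM in Myc females. In males it had 7.52, 11.8, 12.2 and 5.75 CPM in KO mice, against 4.17, 5.40, 4.60 and 4.29 CPM in Myc mice, and it was called in both sexes (log2 fold change 1.00 ± 0.20 and 1.02 ± 0.18, adjusted p = 0.00015 and 2.8e-05). Mcm4 had 18, 15.3, 13.8 and 21.3 CPM in KO females, against 9.91, 10.8 and 10.8 CPM in Myc females. In KO males Mcm4 had 14.4, 20.1, 19.6 and 15.7 CPM, against 12.2, 9.74, 10.7 and 11.1 CPM in Myc males. The groups of both genes were again separate in each sex, and Mcm4 was higher by 0.70 ± 0.12 (females) and 0.68 ± 0.11 (males) (adjusted p = 2.6e-05 and 9.8e-06). Mcm2 was higher by 0.84 in females and 0.77 in males and Mcm7 by 0.53 in each sex. Mcm6 was the exception in the ring, with 17.1, 15.7, 12.5 and 20.5 CPM in KO females and 20.7, 8.62 and 14.2 CPM in Myc females. In males Mcm6 had 18.8, 30.1, 32.4 and 20.6 CPM in KO mice and 18.9, 20.1, 16.5 and 18.5 CPM in Myc mice. The groups overlapped in both sexes, and the log2 fold changes of 0.17 ± 0.27 and 0.47 ± 0.25 did not pass the test (adjusted p = 0.66 and 0.16). Cdc6, which prepares the origin for Cdt1, reached 0.72 ± 0.37 in females (adjusted p = 0.13) and was called in males at 0.93 ± 0.33 (adjusted p = 0.027).

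Of the 4 genes that activate the helicase, 2 were called higher in females (18.1% of all genes) and 3 in males (17.2%). Mcm10, needed to start unwinding, was higher by 1.10 in females and 1.30 in males. The GINS subunit gene Gins1 was higher by 0.82 in females and 1.40 in males. Its partner Gins2 was called only in males (0.66 in females, 0.79 in males), and Cdc45, which joins GINS on the MCM ring, in neither sex (0.59 ± 0.27, adjusted p = 0.094, and 0.61 ± 0.25, adjusted p = 0.055). Cdc45 was called in males without KO male 3 (0.74, adjusted p = 0.029) or KO male 42 (0.83, adjusted p = 0.0056), and Gins2 in females without Myc female 31 (1.02, adjusted p = 0.031).

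Polymerase and clamp genes had the lowest medians of the 4 replication roles (0.26 in females and 0.44 in males). Pcna, the sliding clamp that holds DNA polymerases, had 46.5, 48.5, 38.4 and 43.5 CPM in KO females, against 32.2, 33.1 and 30.9 CPM in Myc females. In KO males Pcna had 43.0, 56.7, 49.4 and 35.8 CPM, against 34.1, 35.7, 32.7 and 33.7 CPM in Myc males. The separation was complete but narrow, by 35.8 CPM in KO male 42 to 35.7 CPM in Myc male 22, with log2 fold changes of 0.47 ± 0.10 and 0.44 ± 0.09 (adjusted p = 0.00034 and 0.00021). Pole, the catalytic subunit of the leading-strand polymerase, was higher by 0.87 in females and 1.04 in males, and Lig1, which seals Okazaki fragments, by 0.50 and 0.83. The primase-polymerase genes Pola1 (0.20 and 0.40) and Prim1 (0.26 and 0.47) were called in males only, as was the clamp loader gene Rfc3 (0.10 and 0.33). Rfc4, another clamp loader subunit, had 3.55, 2.34, 2.34 and 3.57 CPM in KO females and 2.49, 3.20 and 2.34 CPM in Myc females. In males Rfc4 had 3.11, 4.25, 4.00 and 1.47 CPM in KO mice and 2.41, 2.86, 2.23 and 2.43 CPM in Myc mice. KO male 42 was the lowest of all these males, the groups overlapped, and Rfc4 was called in neither sex (0.14 ± 0.24 and 0.38 ± 0.22, adjusted p = 0.69 and 0.19). Without mouse 42 it was called in males (0.61, adjusted p = 0.015).

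The nucleotide supply genes split widely. Rrm2, the cell cycle regulated subunit of ribonucleotide reductase, had 4.96, 3.44, 4.32 and 10.0 CPM in KO females, against 1.38, 1.34 and 0.937 CPM in Myc females. In KO males Rrm2 had 5.46, 25.0, 10.7 and 3.59 CPM, against 1.86, 1.49, 1.50 and 1.27 CPM in Myc males. Its log2 fold change was the highest of the replication genes, 2.21 ± 0.41 in females and 2.87 ± 0.36 in males (adjusted p = 6e-05 and 9.4e-08). Rrm1, the large subunit of the same enzyme, had 22.4, 21.1, 18.9 and 27.8 CPM in KO females, against 16.2, 14.4 and 17.9 CPM in Myc females. In KO males Rrm1 had 20.5, 32.9, 28.2 and 21.2 CPM, against 18.2, 17.6, 16.7 and 18.7 CPM in Myc males. Rrm1 was separate between the groups as well, but its log2 fold change was only 0.48 ± 0.12 in females and 0.53 ± 0.11 in males (adjusted p = 0.0021 and 0.00027). Tyms, which makes thymidylate, was called in males only (0.28 in females, 0.68 in males).

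Among the mitotic kinases and cyclins, Cdk1, its partner Ccnb1 and Aurkb had the largest log2 fold changes, all from few counts in Myc mice. Cdk1 had 5 to 23 counts in Myc females and 3 to 13 in Myc males. Ccnb1 had 1 to 6 and 3 to 8, and Aurkb 5 to 8 and 3 to 9, so the order of these 3 genes is uncertain. Cdk1, the kinase that drives entry into mitosis, had 2.61, 1.92, 2.13 and 5.31 CPM in KO females, against 0.556, 0.475 and 0.213 CPM in Myc females. In KO males Cdk1 had 2.14, 12.5, 5.54 and 0.821 CPM, against 0.0754, 0.413, 0.293 and 0.203 CPM in Myc males. The groups did not overlap although KO males spanned 0.821 to 12.5 CPM, and the log2 fold change was 2.80 ± 0.56 in females (adjusted p = 0.00015) and 4.44 ± 0.53 in males (adjusted p = 3e-08). Ccnb1, cyclin B1, was higher by 3.31 ± 0.77 in females and 3.61 ± 0.64 in males, Ccnb2 by 1.10 and 1.93, and Ccna2, cyclin A2, by 1.00 and 1.80. Aurkb, kinase of the chromosomal passenger complex, was higher by 2.40 and 3.61. The centrosomal kinase gene Aurka (0.42 and 0.92) and the Polo kinase gene Plk1 (0.66 and 1.20) were called in males only.

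Of the spindle checkpoint and anaphase genes, 4 of 5 were called higher in females (18.1% of all genes) and 5 of 5 in males (17.2%). Cdc20, an activator of the anaphase-promoting complex, had 0.969, 1.03, 1.67 and 2.97 CPM in KO females, against 0.459, 0.435 and 0.298 CPM in Myc females. In KO males Cdc20 had 1.49, 6.93, 3.79 and 1.73 CPM, against 0.427, 0.540, 0.733 and 0.355 CPM in Myc males. It was called in both sexes (2.03 ± 0.42 and 2.77 ± 0.37, adjusted p = 0.00026 and 1.9e-07). Ube2c, a ubiquitin-conjugating enzyme of the same complex, was higher by 2.54 in females and 3.56 in males, and the checkpoint kinase gene Bub1 by 2.22 and 2.91. Bub1b was nearly the same in females (1.28) and males (1.23), while Ttk, the checkpoint kinase MPS1, was called in males only (0.93 and 1.99).

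Genes of the condensed chromosome included the markers most used to stain dividing cells. Mki67, which encodes the Ki-67 antigen, had 9.75, 6.72, 13.0 and 28.0 CPM in KO females, against 3.26, 1.90 and 4.81 CPM in Myc females. In KO males Mki67 had 9.33, 37.4, 36.6 and 15.7 CPM, against 2.24, 3.14, 3.20 and 3.35 CPM in Myc males. The groups were separate, with log2 fold changes of 2.12 ± 0.45 and 3.06 ± 0.42 (adjusted p = 0.00046 and 6.9e-07). Top2a, the topoisomerase that untangles sister chromatids, had 8.16, 4.77, 10.5 and 26.0 CPM in KO females, against 1.62, 1.54 and 2.30 CPM in Myc females. In KO males Top2a had 6.54, 42.4, 28.7 and 8.64 CPM, against 1.36, 1.87, 1.64 and 2.13 CPM in Myc males. It was called in both sexes (2.77 ± 0.56 and 3.62 ± 0.51, adjusted p = 0.00025 and 1.2e-06). Birc5, survivin of the chromosomal passenger complex, was higher by 2.01 in females and 2.83 in males, the kinetochore gene Cenpf by 1.50 and 2.31, and the kinetochore motor gene Cenpe was called in males only (0.72 and 1.54).

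Spindle and cytokinesis genes ranged widely, and 4 of 7 were called higher in females (18.1% of all genes) and 5 of 7 in males (17.2%). Kif23, a motor of the central spindle, had 1.78, 1.20, 2.41 and 3.02 CPM in KO females, against 0.411, 0.475 and 0.639 CPM in Myc females. In KO males Kif23 had 1.11, 7.72, 3.20 and 1.73 CPM, against 0.980, 0.476, 0.586 and 0.659 CPM in Myc males. It was called in both sexes (2.06 ± 0.43 and 2.34 ± 0.37, adjusted p = 0.00029 and 5.2e-06). Kif11, the motor that separates the spindle poles, had 3.26, 1.99, 3.39 and 6.27 CPM in KO females, against 1.16, 1.11 and 1.15 CPM in Myc females. In KO males Kif11 had 2.41, 10.5, 8.44 and 3.37 CPM, against 1.76, 1.36, 1.44 and 1.60 CPM in Myc males. Both motors were thus separate between the groups, and Kif11 was higher by 1.70 ± 0.37 and 2.01 ± 0.33 (adjusted p = 0.00045 and 8e-06). The spindle genes Tpx2 (1.76 and 2.32) and Prc1 (0.82 and 1.37) were called in both sexes and Nusap1 (0.69 and 1.70) in males only.

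Anln and Kif20a were called in neither sex when all mice were used. Anln, an actin-binding protein of the cleavage furrow that myelinating oligodendrocytes also express, had the highest mean level of the mitotic genes. It had 64.0, 66.1, 46.4 and 32.5 CPM in KO females and 32.6, 36.2 and 47.9 CPM in Myc females. In males it had 51.8, 53.8, 37.5 and 51.5 CPM in KO mice and 57.7, 33.7, 41.8 and 44.9 CPM in Myc mice. The groups overlapped, at log2 fold changes of 0.43 ± 0.22 (females) and 0.13 ± 0.20 (males) (adjusted p = 0.14 and 0.70), and KO female 34, the mouse with the highest Mki67 of the females, had the lowest Anln of the KO and Myc females. Without mouse 34 Anln was called higher in females (0.60, adjusted p = 0.029). Kif20a, a motor of the central spindle, had 0.539, 0.915, 1.26 and 1.44 CPM in KO females and 0.773, 0.870 and 0.596 CPM in Myc females. In males Kif20a had 0.946, 2.94, 1.57 and 0.994 CPM in KO mice and 1.11, 1.36, 0.850 and 0.710 CPM in Myc mice. Its log2 fold changes of 0.47 ± 0.37 and 0.69 ± 0.32 did not pass the test (adjusted p = 0.34 and 0.10), but Kif20a was called in males without KO male 3 (0.88, adjusted p = 0.044) or KO male 42 (0.85, adjusted p = 0.049).

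**Figure D3:**
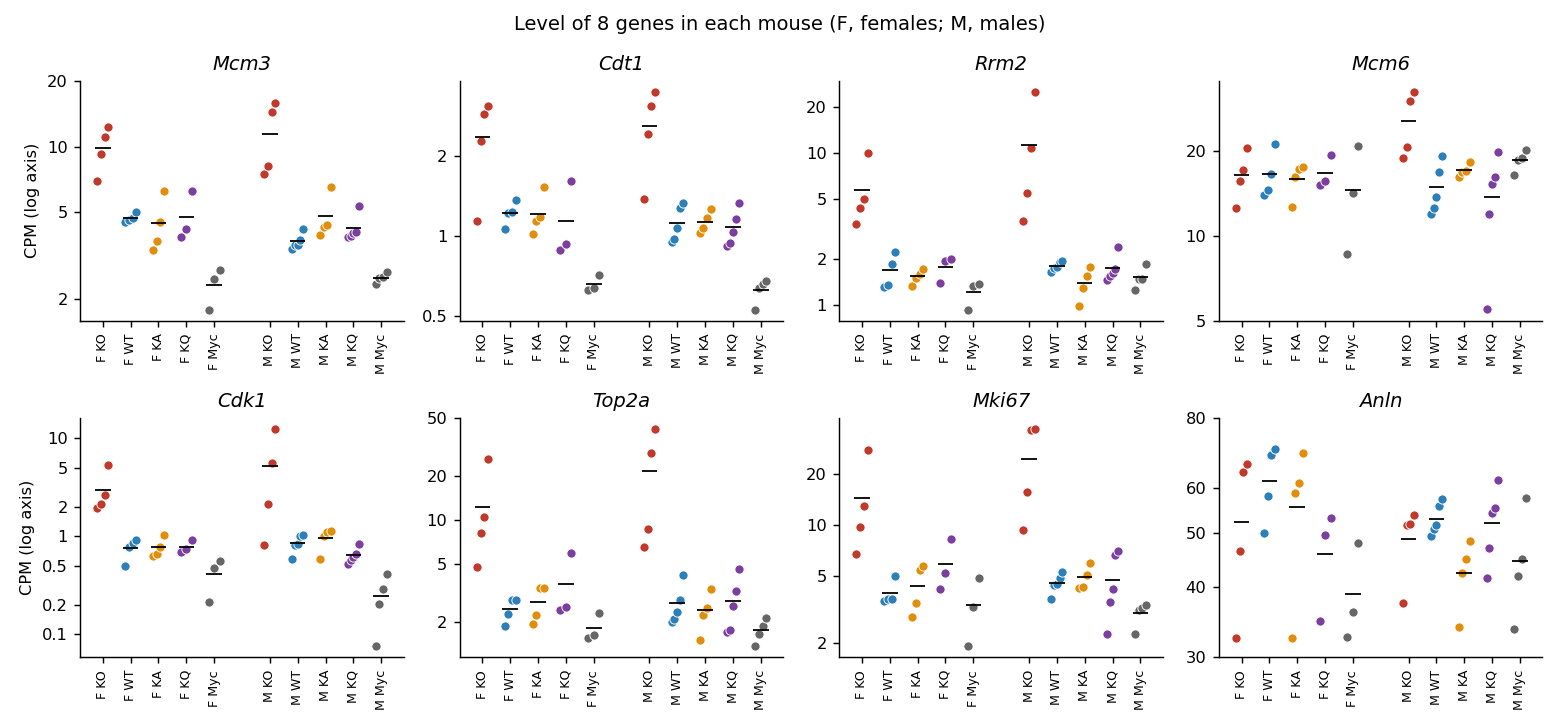
Level (CPM, log axis) of Mcm3, Cdt1, Rrm2 and Mcm6 (top) and Cdk1, Top2a, Mki67 and Anln (bottom) in each mouse, by group and sex; each point is 1 mouse and each line the group mean. KO mice lie above all Myc mice of their sex in 6 of these genes, and overlap with them in Mcm6 and Anln.

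The members did not move evenly over mice. For each list, the mean log2 CPM of its genes was set against the mean of the Myc mice of the same sex. The replication level was 0.75, 0.58, 0.44 and 1.11 in KO females 13, 14, 33 and 34, against -0.02 to 0.03 in Myc females. The mitotic level was 1.11, 0.84, 1.48 and 2.21 in the same KO females, against -0.07 to 0.12 in Myc females. In KO males 3, 4, 21 and 42 the replication level was 0.54, 1.40, 1.13 and 0.30, against -0.06 to 0.08 in Myc males. The mitotic level was 0.95, 3.08, 2.40 and 1.14 in these KO males, against -0.06 to 0.09 in Myc males. Mouse 34 among the females and mouse 4 among the males therefore stood highest for both lists. Mouse 34 had the highest CPM of the 4 KO females in 20 of 22 replication and 23 of 24 mitotic genes, although it was highest in 24.8% of the 5147 genes called higher in females. Mouse 4 had the highest CPM of the 4 KO males in 20 of 22 replication and 24 of 24 mitotic genes, and in 48% of the 4900 genes called higher in males. The lowest mouse differed between the lists. Mouse 33 was lowest in 14 of 22 replication genes but in 0 of 24 mitotic genes, whereas mouse 14 was lowest in 7 and 18. Of all genes called higher in females, mouse 33 was lowest in 57.7% and mouse 14 in 8.18%. Among the males, mouse 42 was lowest in 15 of 22 replication and 5 of 24 mitotic genes, and mouse 3 in 7 and 18. Of all genes called higher in males, mouse 42 was lowest in 46.6% and mouse 3 in 25%. Mice 33 and 42 were thus most often the lowest over all genes called higher too, as in the replication list but not the mitotic list. The mitotic level exceeded the replication level in every KO mouse, by 0.26 to 1.09 in females and by 0.42 to 1.68 in males, against -0.08 to 0.13 in Myc females and -0.10 to 0.09 in Myc males. Without mouse 34 the median log2 fold change in females was 0.46 for replication and 1.27 for mitotic genes, and without mouse 4 it was 0.55 and 1.60 in males. The calls of Mcm10, Gins1, Pole, Ccna2, Ccnb2 and Prc1 in females were lost without mouse 34 and that of Anln was gained, which gave 10 replication and 15 mitotic genes. In males those of Gins2, Cdc6, Pola1, Prim1, Rfc3, Tyms and Aurka were lost without mouse 4 and none was gained, which left 13 and 21.

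**Figure D4:**
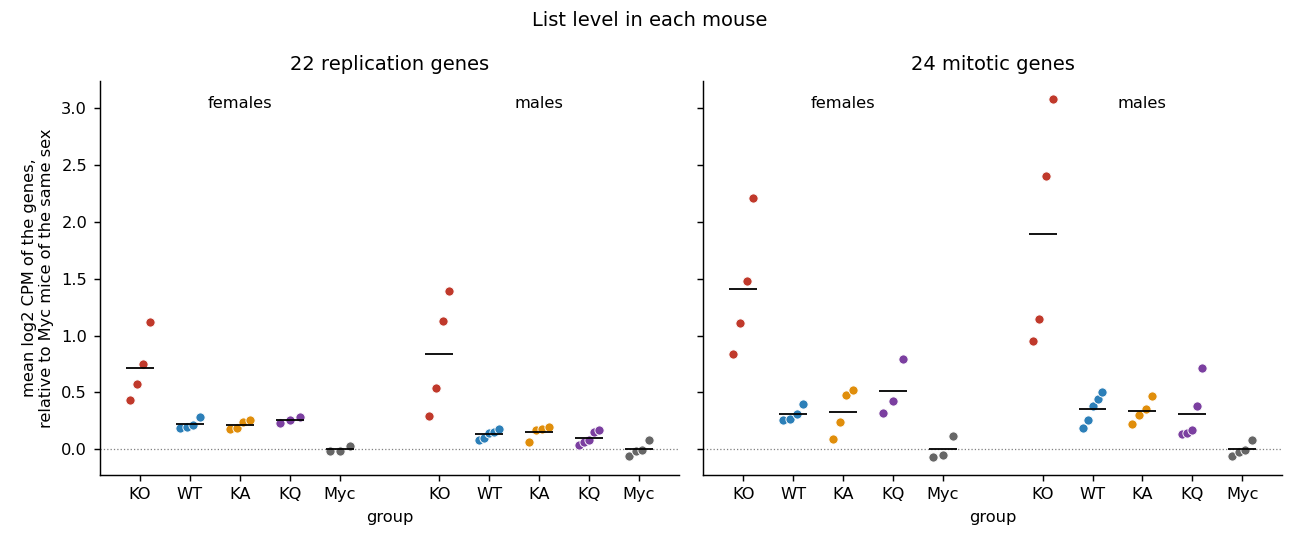
Mean log2 CPM of the 22 replication genes (left) and 24 mitotic genes (right) in each mouse, relative to the mean of the Myc mice of its sex; each point is 1 mouse and each line the group mean. KO mice span 0.30 to 1.40 for replication and 0.84 to 3.08 for mitotic genes, and the means of the replacement groups lie between those of the KO and the Myc mice.

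Markers of many cell types moved with these genes, among them cells that can divide or enter the tissue. All 16 markers of T and NK cells were called higher in KO mice of both sexes, with summed levels of 29.0 to 165 CPM in KO females against 3.07 to 7.15 CPM in Myc females. They summed to 66.0 to 233 CPM in KO males against 2.87 to 3.88 CPM in Myc males. The NK cell receptor gene Ncr1 had 0 counts in every Myc female. All 8 markers of B and plasma cells were called higher, and Blk had 0 counts in every Myc male. Of 12 microglia markers, 11 were called higher in each sex, summing to 994 to 1608 CPM in KO females against 353 to 479 CPM in Myc females, and to 1134 to 1833 CPM in KO males against 340 to 434 CPM in Myc males. Markers of phagocytic microglia and macrophages were called higher for 14 of 16 genes in females and 15 of 16 in males. Of 14 markers of neural progenitors and neuroblasts, 4 were called higher in each sex and 1 lower in females, where 18.1% (females) and 17.2% (males) of all genes were called higher, with the 14 markers summing to 234 to 253 CPM in KO females against 187 to 202 CPM in Myc females, and to 202 to 253 CPM in KO males against 186 to 213 CPM in Myc males. Oligodendrocyte precursor markers were called higher for 5 of 8 genes in females and 3 of 8 in males, and those of mature oligodendrocytes for 4 of 8 and 3 of 8. Astrocyte markers were called higher for 6 of 8 genes in each sex, with mean sums of 9898 CPM in KO females against 4716 CPM in Myc females and of 8544 CPM in KO males against 4662 CPM in Myc males. Endothelial markers were called higher for 7 of 8 genes in females and 4 of 8 in males, markers of mural cells and fibroblasts for 6 of 8 and 4 of 8, those of ependyma for 2 of 6 and 1 of 6, and those of choroid plexus for 11 of 12 and 0 of 12. Of 12 markers of hippocampal neurons, 9 were called lower in females and 8 in males, where 16.5% and 14.4% of all genes were called lower.

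The order of the KO mice was shared in part. Mouse 34 had the highest sum of T and NK cell markers of the KO females (165 CPM) but stood below mice 13 and 14 in microglia markers (1390 CPM against 1608 and 1499 CPM). Mouse 4 had the highest sum of microglia markers of the KO males (1833 CPM) and the lowest sum of T and NK cell markers (66.0 CPM), while mouse 21 had the highest sum of T and NK cell markers (233 CPM) and the second highest mitotic level. KO females 14 and 33 also had high Ttr, a choroid plexus gene (3655 and 2654 CPM), and without the mice above 1000 CPM of Ttr the counts in females were 14 replication and 17 mitotic genes. The part of these cell types in the change of the members was not tested.

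**Figure D5:**
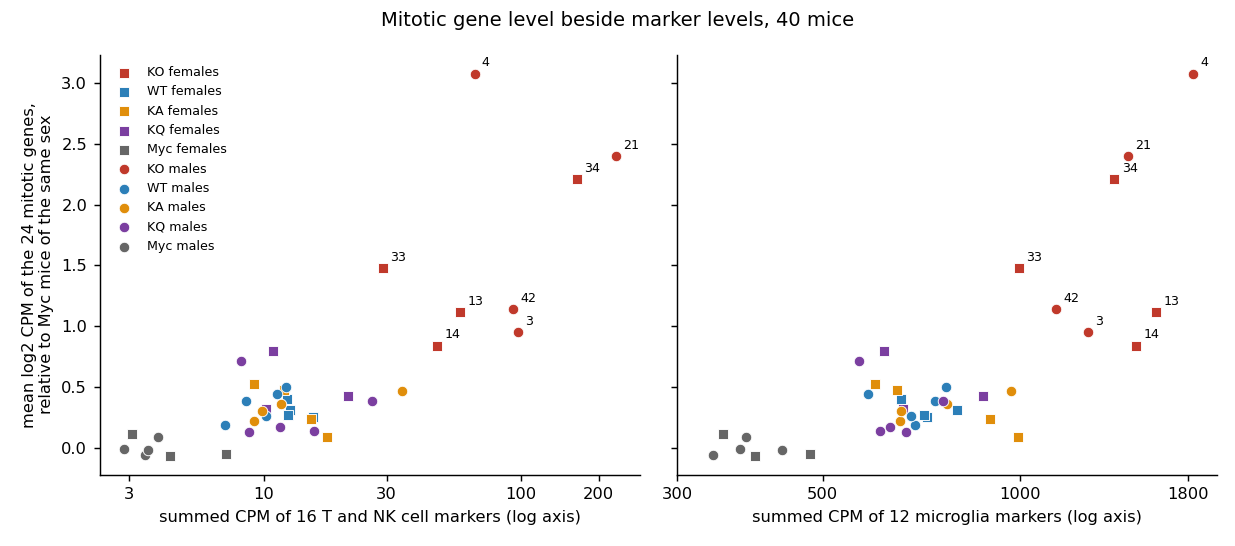
Mean log2 CPM of the 24 mitotic genes relative to Myc mice of the same sex against the summed CPM (log axis) of 16 T and NK cell markers (left) and 12 microglia markers (right), 1 point for each of 40 mice; KO mice carry their sample number. All 8 KO mice lie above 0.80 on the mitotic level and above 990 CPM of microglia markers. KA female 16 also lies above 990 CPM of microglia markers (992 CPM), at a mitotic level of 0.09. Mouse 4 is highest in mitotic level but lowest of the KO males in T and NK cell markers.

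Other genes of the cell cycle were taken from lists that hold no member. For comparison, 18.1% of all genes were called higher and 16.5% lower in females, and 17.2% and 14.4% in males. Among 43 other kinetochore and spindle genes, 27 were higher and 1 lower in females (median log2 fold change 1.12) and 31 higher and 1 lower in males (1.48). They included the kinetochore genes Spc25 (2.63 and 3.04) and Nuf2 (1.15 and 1.18) and the kinesins Kif18b (3.85 and 3.66) and Kif2c (2.50 and 3.27). Among 28 genes of condensin, cohesin and cytokinesis, 16 were higher and 2 lower in females (median 1.37) and 23 higher and 1 lower in males (1.74), with Hmgb2 (1.83 and 1.98), Iqgap3 (2.43 and 3.27), Lmnb1 (0.91 and 1.07) and the condensin and cohesin family gene Smc4 (0.90 and 1.12) among them. Medians were lower for 42 other licensing and fork genes, of which 12 were higher and 3 lower in females (median 0.15) and 18 higher and 4 lower in males (0.16). Named by p, these were the chromatin assembly gene Chaf1b (3.21 and 2.96), Timeless (1.09 and 1.43), the kinase activator gene Dbf4 (1.15 and 1.58) and the nuclease gene Dna2 (1.12 and 1.84). Of 22 other nucleotide and S phase genes, 7 were higher and 1 lower in females (0.18) and 10 higher and 1 lower in males (0.30), including Uhrf1 (2.34 and 2.75), thymidine kinase Tk1 (2.78 and 3.26) and Brca1 (1.16 and 1.54). The medians of the kinetochore and spindle list and of the condensin, cohesin and cytokinesis list thus lay above those of the licensing and S phase lists in each sex.

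Among genes that regulate the cycle, calls in both directions were made, beside 18.1% of all genes called higher and 16.5% called lower in females and 17.2% and 14.4% in males. Of 27 tested genes of mitotic entry and the anaphase-promoting complex, 4 were higher and 4 lower in females (median -0.07) and 6 higher and 3 lower in males (-0.04), shares near those of all genes in females. Fbxo5, an inhibitor of that complex, was higher (1.29 and 1.27), as was Cks2 (1.77 and 1.93), whereas Fzr1, another activator of the complex, fell by 0.40 and 0.44 and Ccna1 fell by 0.49 and 0.50. Of 21 E2F, RB and DREAM genes, 10 were higher and 1 lower in females and 9 higher and 2 lower in males, with Rbl1, which encodes p107, at 2.11 and 2.28, the repressor E2f8 at 2.56 and 2.16, Rb1 at 0.49 and 0.41 and Mybl1 at 0.88 and 0.78. Of 9 G1 cyclins and kinases, 5 were higher in each sex, and 2 were lower in females and 1 in males. Cdk2 (1.41 and 1.33), Ccnd1 (0.92 and 0.95) and Ccnd3 (1.05 and 0.75) were higher, and Ccne1 fell by 0.73 and 0.82. Inhibitors of the cell cycle kinases were higher as well, 7 of 8 in females and 4 of 8 in males, where 1 was lower. Cdkn1a, which encodes p21, was higher by 2.17 ± 0.22 in females and 2.17 ± 0.20 in males (adjusted p = 6.7e-09 and 1.7e-10), Cdkn2c by 1.54 and 1.41, Cdkn2a, which encodes p16 and ARF, by 2.97 and 3.32, and Cdkn3 by 1.50 and 2.19.

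The replacement groups asked whether H2A.Z.1 given together with Cre altered this. With intact H2A.Z.1 (WT against KO), 10 replication and 16 mitotic genes were lower in females, 26 of 46 members where 9.17% of all genes were called lower. In males 20 replication and 22 mitotic genes were lower, 42 of 46 members, where 12% of all genes were. Cdk1 had 0.502 to 1.03 CPM in the 11 females with any replacement, against 1.92 to 5.31 CPM in KO females, and 0.518 to 1.13 CPM in the 14 males with a replacement, against 0.821 to 12.5 CPM in KO males. KO male 42 lay within the range of the replacement males, the other KO mice above it. The log2 fold change of WT over KO was -1.98 ± 0.46 in females and -2.63 ± 0.43 in males (adjusted p = 0.0029 and 2.2e-05). Mcm3 had 3.37 to 6.26 CPM in replacement females and 3.39 to 6.57 CPM in replacement males, below every KO mouse of the same sex. Its change with WT was -1.07 ± 0.21 and -1.65 ± 0.20 (adjusted p = 0.00062 and 3.4e-07). Top2a had 1.87 to 5.96 CPM in replacement females and 1.50 to 4.59 CPM in replacement males, and fell by 2.34 and 3.00 on the log2 scale with WT. In females the ranges overlapped, as KQ female 38 (5.96 CPM) lay above KO female 14 (4.77 CPM). Replacement males lay below every KO male (from 6.54 CPM).

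With the alanine form (KA against KO), 9 replication and 16 mitotic genes were lower in females, 25 of 46 members where 9.62% of all genes were lower, and 17 and 21 in males, 38 of 46 where 9.94% were. Cdk1 changed by -1.96 ± 0.46 in females and -2.47 ± 0.46 in males, and Mcm3 by -1.15 ± 0.21 and -1.27 ± 0.21. With the glutamine form (KQ against KO), 8 replication and 9 mitotic genes were lower in females, 17 of 46 members where 7.63% of all genes were lower, and 19 and 22 in males, 41 of 46 where 12.7% were. Cdk1 changed by -1.94 ± 0.51 in females and -3.05 ± 0.44 in males, and Mcm3 by -1.06 ± 0.23 and -1.45 ± 0.20. No member was higher than in KO mice with any of the 3 forms. The count for KQ females rested on few mice. It was 2 without KQ female 37, 4 without KO female 34, 7 without KQ female 17, 9 without KQ female 38 and 11 without KO female 13, and it was 0 when the fit held only these 2 groups. Without KO female 34 the counts were 14 for WT and 12 for KA females, and without KA female 15 the count for KA females was 16. The 3 forms share the KO mice, so their counts are not independent.

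The replacement mice lay close to, but mostly above, the Myc mice. The mean replication level was 0.22 ± 0.05 in WT, 0.22 ± 0.04 in KA and 0.26 ± 0.03 in KQ females, against 0.72 ± 0.29 in KO females (SD, n = 4, 4, 3 and 4). It was 0.13 ± 0.04 in WT, 0.15 ± 0.06 in KA and 0.10 ± 0.06 in KQ males, against 0.84 ± 0.51 in KO males (SD, n = 5, 4, 5 and 4). The mean mitotic level was 0.31 ± 0.06 in WT, 0.33 ± 0.20 in KA and 0.51 ± 0.25 in KQ females, against 1.41 ± 0.59 in KO females. It was 0.36 ± 0.13 in WT, 0.34 ± 0.10 in KA and 0.31 ± 0.25 in KQ males, against 1.89 ± 1.02 in KO males. Every replacement mouse stood above 0 for both lists, the Myc mean of its sex, and the highest mitotic levels were 0.80 in KQ female 38 and 0.72 in KQ male 44. Against Myc mice, 3 members were called higher in WT females (Mcm3, Mcm7 and Cdt1; 5.87% of all genes) and 2 in WT males (Cdt1 and Cdk1; 3.66%). With KA they were 2 in females (Mcm3 and Pcna; 4.42%) and 3 in males (Mcm3, Cdt1 and Cdk1; 5.15%), and with KQ 2 in females (Mcm3 and Pcna; 3.59%) and 1 in males (Mcm3; 3.48%). The log2 fold change of Mcm3 was 1.02, 0.94 and 1.03 in WT, KA and KQ females and 0.93 and 0.75 in KA and KQ males. No member was lower than in Myc mice. These counts are near the share of all genes, and each fell to 0 or 1 in some fit that left out 1 mouse. Mice whose omission moved such a count by more than 1.5 times were Myc 11, 31 and 32, WT 19 and 20, KA 16 and 35 and KQ 17 and 37 among the females, and Myc 1, 22, 23 and 41, WT 10, 29 and 46, KA 5 and KQ 8 among the males. The mean sum of T and NK cell markers in replacement mice was 9.83 to 16.3 CPM per group, against 74.6 CPM in KO females and 122 CPM in KO males and 4.84 and 3.44 CPM in Myc females and males, and that of microglia markers was 649 to 785 CPM, against 1373 and 1423 CPM in KO and 409 and 383 CPM in Myc females and males. Their part in these differences was not tested.

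The alanine and glutamine forms differ at the same 3 lysines, and the direct comparison of KA with KQ called no member in either sex with edgeR or with DESeq2 (0% of all genes with edgeR). At an unadjusted p below 0.05 there were 0 members in females and 1 in males, Rrm1 (-0.26 ± 0.11, adjusted p = 0.41). The log2 differences of the members lay between -0.89 and 0.28 in females and between -0.64 and 0.58 in males. For Cdk1 the difference was -0.02 ± 0.51 in females and 0.58 ± 0.45 in males, for Mki67 it was -0.42 ± 0.42 and 0.06 ± 0.37, and for Mcm3 it was -0.10 ± 0.23 and 0.18 ± 0.20. The approximate 95% interval for Cdk1 was -1.02 to 0.99 in females and -0.30 to 1.46 in males. A missed threshold does not show that the forms act alike.

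The sexes were compared directly. The log2 fold change of KO over Myc was larger in males than in females in 18 of 22 replication and 22 of 24 mitotic genes, and the median difference of females minus males was -0.20 and -0.77. The interaction test of edgeR called 0 of 46 members (0% of all genes), as did DESeq2, and 2 members had an unadjusted p below 0.05. These were Nusap1 (-1.01 ± 0.42, adjusted p = 0.84) and Cdk1 (-1.64 ± 0.74, adjusted p = 0.88). A difference of the response between the sexes was therefore not shown for any member, including the 11 called in males only. Among Myc mice, females and males differed in 0 of 46 members with edgeR and with DESeq2, with 0 at an unadjusted p below 0.05, where 0.0457% of all genes were called. The widest differences of females minus males in Myc mice were those of Cdk1 (0.82 ± 0.61) and Bub1b (-0.44 ± 0.30). A missed threshold does not show equal control levels. Their part in the fold changes of each sex was not tested.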

How the data were processed

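Hippocampal RNA of 40 mice in 10 groups (sex by virus) was sequenced as paired ends on an Illumina HiSeq4000. The authors checked reads with FastQC 0.11.9, aligned them to GRCm39 with Rsubread, counted them per gene with featureCounts and tested them with DESeq2 1.38.3 after removing genes with a count sum below 20; whether counting used strand was not given in the sources used here. The deposited values used here are raw read counts per gene. A second deposited table, of counts divided by size factors, was not used. Genes were named by the symbols of the table. No gene was given coordinates of GRCm39; promoter sequences are RefSeq windows of build GRCm38.p6, matched by symbol.

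Counts were analysed in R 4.3.3 with edgeR 4.0.16 (TMM normalisation, robust quasi-likelihood fit with 10 group means over all 40 mice, 28449 genes whose counts summed to 20 or more, Benjamini-Hochberg adjustment over all of them). A call needed an adjusted p below 0.05 at any fold change, and SE was the log2 fold change divided by the root of the F statistic. List levels are means of log2 CPM with a prior count of 2. The steps were tested on simulated data in which every group had the same spread. The larger spread between KO mice was not part of that simulation. P-values set a difference against the spread between mice within groups, estimated once per gene and shared by all 10 groups. KO mice varied more than Myc mice, with an SD of the mitotic level of 0.59 against 0.10 in females. In males it was 1.02 against 0.06. A p-value therefore does not reflect the spread of only the 2 groups compared. Alternatives were DESeq2 1.42.0, its size factors in edgeR, filterByExpr, no filter, only the groups compared, no robust estimation, the range of sample numbers as covariate, leaving out mice above 1000 CPM of Ttr, and leaving out each mouse.

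The members and the gene lists were chosen with earlier results of these data known. Of the members, the 5 with the smallest p in each list (by the larger p of both sexes), the 2 with the highest mean CPM and the 2 with the largest p are given mouse by mouse, and of each other list up to 4 genes with the smallest p. Promoters are printed for up to 3 of these replication and 3 of these mitotic genes, by p. The values of 1 gene that the naming rule selects are not reported here.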

Additional observations from a re-analysis of the deposited data

Results flagged for a closer look

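For the 17 genes given mouse by mouse and the list levels, each group of 4 or 5 mice was searched for a mouse whose gap to its nearest neighbour took up most of the range of the group (Dixon's 95% critical value). Of 160 groups searched, 9 held such a mouse, and chance gives about 1 in 20. A high value stood apart for Mcm3 in KA male 5 (6.57 CPM, the others up to 4.37 CPM), Mcm3 in KQ male 8 (5.34 CPM, the others up to 4.05 CPM), Rrm2 in KQ male 44 (2.43 CPM, the others up to 1.73 CPM), Mki67 in WT female 39 (4.95 CPM, the others up to 3.64 CPM) and Kif20a in KQ male 28 (1.78 CPM, the others up to 0.838 CPM). A low value stood apart for Mcm5 in WT male 29 (4.83 CPM, the others from 5.95 CPM), Pcna in KA male 26 (33.8 CPM, the others from 39.5 CPM), Kif23 in KA female 16 (0.530 CPM, the others from 0.786 CPM) and Anln in KO male 21 (37.5 CPM, the others from 51.5 CPM). No list level stood apart in this way in any of these groups.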

How the results depend on the processing

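No paired analysis was possible because the sample numbers are unique to each mouse and no group shares them with another. In KO against Myc, every alternative other than leaving out a mouse kept the 4 counts of members called higher within 1.5 times. Leaving out each mouse in turn gave 10 to 13 replication and 15 to 18 mitotic genes in females, and 13 to 21 and 21 to 23 in males. The direction of all 46 members held in both sexes in every alternative except 1, Mcm6 in females, which was -0.090 without Myc female 31 and reached 0.53 without Myc female 11. Calls of single members changed in some fit without 1 mouse for 10 of 46 members in females and 10 of 46 in males.

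Against KO, leaving out each mouse gave 14 to 26 (WT), 12 to 27 (KA) and 2 to 20 (KQ) members lower in females, and 30 to 42, 28 to 41 and 31 to 42 in males. With only the groups compared in the fit, the count was 16 for KA females, 24 for KA males and 0 for KQ females. Against Myc, leaving out each mouse gave 0 to 3 (WT), 0 to 4 (KA) and 0 to 2 (KQ) members higher in females, and 0 to 2, 1 to 3 and 0 to 1 in males. DESeq2 called 6 in WT females, 4 in KA females and 3 in KQ males. The filterByExpr filter gave 5 in WT females, 4 in KA females and 2 in KQ males. Without a filter there was 1 in WT males and 1 in KQ females. With only the groups compared there were 8 in WT males, 1 in KA females, 5 in KA males and 0 in KQ females. Without mice above 1000 CPM of Ttr there were 4 in KA females, 0 in KQ females and 2 in KQ males, and DESeq2 size factors and the sample number range each gave 2 in KQ males. The cause of these shifts was not tested. KA against KQ, the sex difference of the KO response and Myc females against Myc males gave 0 members in every alternative. Genes at a few counts per library, such as Cdk1, Ccnb1 and Aurkb in Myc mice, have fold changes with wide errors.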
